A study of Mus musculus with 9 samples.

Results

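The neurogenic and progenitor transcription factors of the cortex were followed over 3 genotypes: Neurog1, Neurog2, Neurod1, Eomes, Hes1, Hes5, Sox2, Nr2e1, Dmrta2 and Dmrt3. These 10 genes were picked by symbol from the 24624 genes of the deposited expression table, as factors of cortical progenitors and of neurogenesis, some of them known as targets of repression by FEZF2. Polyadenylated RNA was sequenced from the dissected cerebral cortex of newborn mice at postnatal day 0, one library per mouse. The wild type Fezf2+/+ group had 3 libraries, the null Fezf2-/- group had 4, and the group that was null and also carried the transgene, Fezf2-/-; Fezf2-EnR, had 2. The pups came from crosses of Fezf2+/- with Fezf2+/-;Fezf2-EnR mice and belonged to 3 litters, called m1, m2 and m3. The 2 pups of litter m2 were a wild type and a transgenic null, the 4 of litter m1 were wild type and null in equal number, and litter m3 gave 2 null pups and 1 transgenic null pup.

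Both mutant groups lacked a working endogenous Fezf2 gene, and their null allele carried a human placental alkaline phosphatase reporter under the Fezf2 promoter. Fezf2-EnR is a bacterial artificial chromosome transgene, kept as a single mouse line, in which a chimera of the FEZF2 zinc fingers with a repressor domain taken from engrailed was placed at the Fezf2 start codon, so it is expressed where Fezf2 regulatory DNA is active. Comparing the null with wild type asks what is lost without FEZF2, and comparing the transgenic null with the null asks what an obligate repressor form of FEZF2 changes.

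FEZF2 is a zinc finger transcription factor made by radial glia of the dorsal telencephalon and, later, by deep-layer projection neurons. Radial glia, the stem cells of the cortex, are kept dividing by SOX2, by the nuclear receptor NR2E1 (also called TLX) and by Notch signaling, whose targets HES1 and HES5 are basic helix-loop-helix (bHLH) repressors of the proneural genes. The proneural bHLH factors NEUROG1 and NEUROG2 drive cells out of the stem cell state, first into intermediate progenitors marked by the T-box factor EOMES (also called TBR2) and then, with NEUROD1, into neurons. DMRTA2 and DMRT3 are doublesex-related factors of the dorsal and medial telencephalon that help to hold progenitors to a cortical fate.

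The upstream DNA of Eomes, Neurog2 and Hes5 is printed here because the first 2 were both highest in the transgenic libraries and Hes5, a Notch target, was not. The sequences are RefSeq promoter windows on GRCm38.p6, the assembly that mm10 names, limited to the longest stretch before the transcription start that holds no annotated exon, and all 3 are on the plus strand. The Eomes stretch is chr9:118477939-118478188, the Neurog2 stretch is chr3:127632886-127633134 and the Hes5 stretch is chr4:154960673-154960769. Capitals mark matches on either strand to 1 of 5 motifs: CAGATG (an E-box bound by neurogenins and NEUROD factors), CACNAG (the N-box bound by HES repressors), GTGGGAA (the site of RBPJ, the DNA-binding partner of Notch), GGTGTGA (a T-box site) and TATATAA (for the TATA box). The TATA box was added after the sequences had been read.
Eomes: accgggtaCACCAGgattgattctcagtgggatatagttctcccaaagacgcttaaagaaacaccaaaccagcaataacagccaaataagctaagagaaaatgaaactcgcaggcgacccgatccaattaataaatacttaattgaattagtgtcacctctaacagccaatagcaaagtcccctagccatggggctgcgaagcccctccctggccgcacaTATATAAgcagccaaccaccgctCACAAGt
Neurog2: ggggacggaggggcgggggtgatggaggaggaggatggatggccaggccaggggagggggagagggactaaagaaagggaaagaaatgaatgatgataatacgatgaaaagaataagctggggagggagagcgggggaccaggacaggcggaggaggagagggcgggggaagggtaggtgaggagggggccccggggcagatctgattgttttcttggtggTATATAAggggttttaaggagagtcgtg
Hes5: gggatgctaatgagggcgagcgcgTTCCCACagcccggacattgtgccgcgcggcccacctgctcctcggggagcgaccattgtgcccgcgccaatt

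RefSeq windows of 300 bases, 250 before and 50 after the start, were at hand for 9 of the 10 genes, all but Hes1. The N-box letters were in 3 of these 9 windows, those of Eomes, Neurog2 and Neurod1, against 42.5% of all 32851 windows. Only the Eomes matches lay wholly before the start. Those of Neurog2 and Neurod1 reached or lay past it, and the printed Neurog2 stretch holds none. The TATA box letters were in the same 3 windows, against 3.24% of all windows, and lay 24 to 30 bases before the start in Eomes, 23 to 29 in Neurog2 and 25 to 31 in Neurod1. The RBPJ letters were in the Hes5 window alone, with matches 77 to 83 and 220 to 226 bases before the start, against 6.38% of all windows; the nearer match falls in a stretch that is annotated as exon of the antisense transcript Gm20421 and is not printed. The E-box letters (17.2% of all windows) and the T-box letters (3.98%) were in none of the 9 windows. A match is a description of the letters only.

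The values are read counts that the authors divided by a size factor for each library, called normalized reads below. The libraries held 18716575 to 25127623 whole reads as recovered from these values. Fezf2 itself was at 1232, 1010 and 979 normalized reads in the Fezf2+/+ libraries, at 223, 193, 242 and 209 in the Fezf2-/- libraries and at 907 and 1001 in the Fezf2-/-; Fezf2-EnR libraries, which is low only in the libraries labelled Fezf2-/-. The table does not separate reads of the transgene from reads of the endogenous gene. Neurod6, a bHLH factor that marks excitatory neurons of the cortex, was abundant in every group, with means of 12112, 12739 and 13316 normalized reads in the order given. Of the 2 transgenic libraries, bc209 from litter m2 gave more calls than bc208 from litter m3: 1088 genes were called between transgenic null and null with bc209 alone, and 21 with bc208 alone. These and all fits below without 1 transgenic library rest on an arm of 1 library, which is assumed to vary like the other groups. The X-inactivation RNA Xist was at 12203 and 7895 normalized reads in the transgenic libraries and at 10771 in the wild type library bc201, and at no more than 58.9 in the other 6, so that all 4 null libraries were Xist-low and both transgenic libraries Xist-high; in the comparison of these groups, sex and transgene cannot be told apart except through bc201.

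In wild type cortex the 10 genes spanned a wide range of levels, given as normalized reads per kilobase of exon (mean ± SD, n = 3). Sox2 was highest at 420 ± 30.4, followed by Neurod1 at 233 ± 12.4. Hes5 at 113 ± 26.0, Nr2e1 at 66.8 ± 2.55 and Hes1 at 62.9 ± 8.22 came next, and the last 2 of these did not differ beyond their spread. Eomes at 32.7 ± 10.8, Dmrta2 at 29.0 ± 4.14 and Neurog2 at 22.8 ± 2.40 per kilobase were close to one another, and the library ranges of all 3 pairs overlapped. Dmrt3 at 2.41 ± 0.519 and Neurog1 at 0.166 ± 0.288 were near the limit of detection.

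Neurog1 and Dmrt3 did not reach the mean of 10 normalized reads needed for testing, and the other 8 did. Neurog1 had 1 read in a single wild type library, no read in the 4 Fezf2-/- libraries, and 1 and 2 reads in the Fezf2-/-; Fezf2-EnR libraries. Dmrt3 was at 5.07, 7.36 and 5.27 normalized reads in wild type, at 7.03, 3.27, 5.21 and 2.49 in the null and at 4.98 and 4.37 in the transgenic null. A difference by genotype was not detectable for either gene at this depth.

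**Figure D1:**
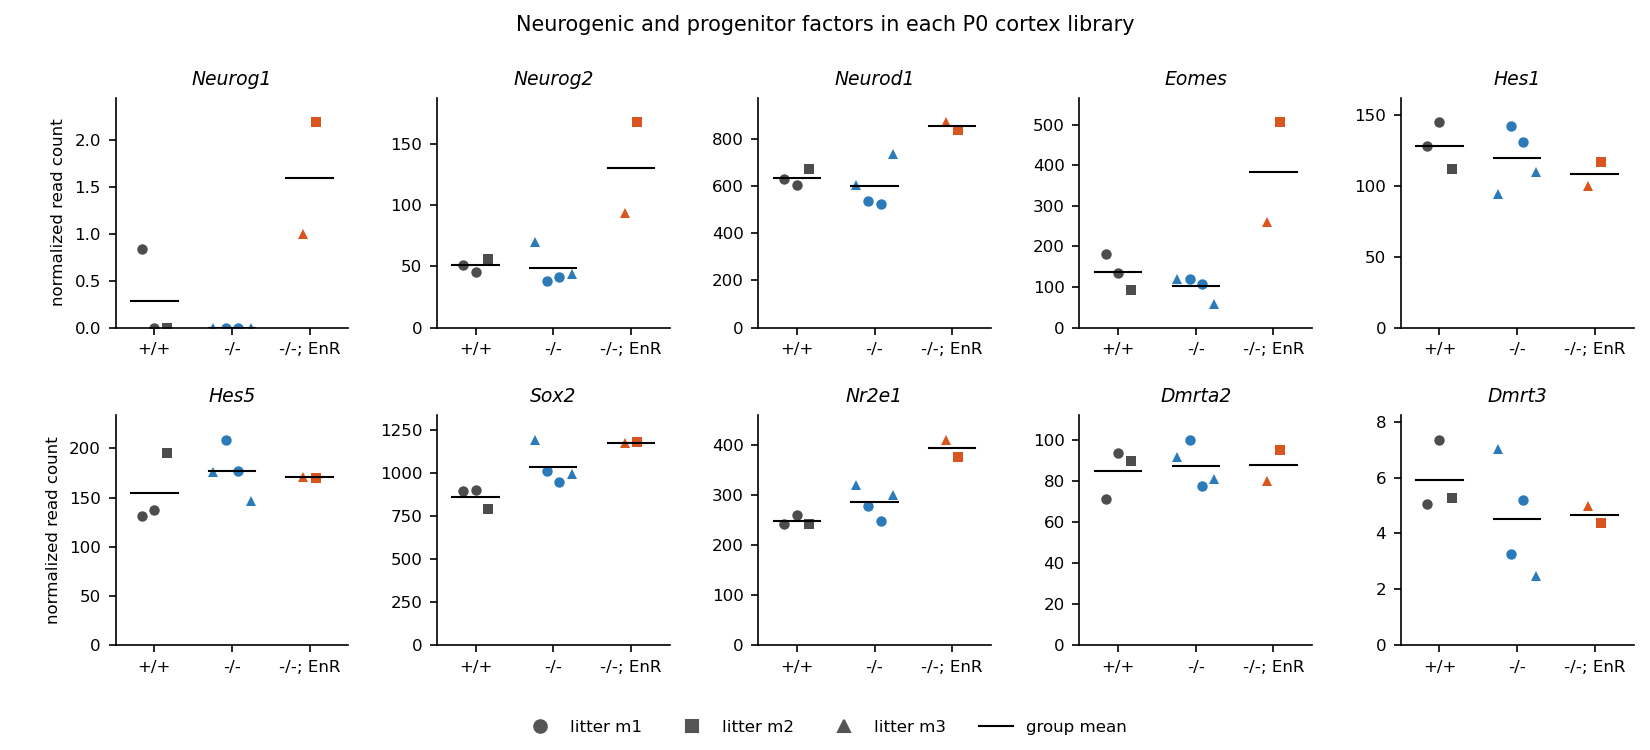
Normalized read count (vertical axes, from 0) of each of the 10 genes in the 9 libraries, by genotype on the horizontal axis; the symbol gives the litter and the line the group mean. Among the 8 tested genes, both Fezf2-/-; Fezf2-EnR libraries lie above every other library for Eomes (260 and 506), Neurog2 (93.6 and 168), Neurod1 (873 and 840) and Nr2e1 (410 and 375). The same holds for Neurog1, which was not tested, on 1 and 2 reads.

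Between null and wild type cortex no member was called. Of the 8 genes tested, 0 passed an adjusted p of 0.05 between Fezf2-/- and Fezf2+/+ (limma on log2 values, Benjamini-Hochberg over all 16197 genes tested), where 0.858% of all genes passed. On recovered reads, the edgeR quasi-likelihood test and DESeq2 also called 0 of the 8, where they called 0.877% and 1.95% of all genes. Sox2 was the 1 gene of the 8 with an unadjusted p under 0.05, a level that 10.8% of all genes reached, and the 1 gene whose libraries did not overlap between the groups, as was so for 13.0% of all genes. The median log2 fold change of the 8 genes was -0.02, beside 0.00 over all genes.

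Sox2 (chr3:34650405-34652461), which holds neural stem cells in their state, was at 896, 903 and 791 normalized reads in wild type, at 1196, 1011, 952 and 993 in the null and at 1177 and 1181 in the transgenic null. All 4 null libraries and both transgenic libraries were above the 3 wild type libraries, and the null and transgenic libraries overlapped. The null exceeded wild type by 0.26 ± 0.09 on the log2 scale (SE, 3 against 4 libraries, limma adjusted p = 0.287), and the exact two-sided permutation test gave p = 0.0571, where the smallest p that 35 arrangements allow is 0.0286. Within litter m1 alone, with 2 libraries a group, the Sox2 difference was 0.13. The summed level of 19 radial glia and astrocyte markers moved the same way, from 37803 to 43337 normalized reads in wild type, 44239 to 50759 in the null and 46011 to 50950 in the transgenic null, all 19 of them detected in every library. The sum of 8 oligodendrocyte precursor markers was 5624 to 5991 in wild type, 6594 to 7048 in the null and 6256 to 6572 in the transgenic null, again with no overlap between null and wild type. The part of such cells in the Sox2 values was not tested, and in bulk cortex more cells of a type and more RNA per cell cannot be told apart.

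Nr2e1 (chr10:42561963-42583632), an orphan receptor required for stem cell self-renewal, was at 242, 259 and 242 normalized reads in wild type and at 319, 277, 248 and 299 in the null. Only null library bc206 fell within the wild type range, and the log2 difference of 0.20 ± 0.10 did not pass (limma adjusted p = 0.521; exact permutation p = 0.114). The genes of neuron production overlapped between null and wild type. Neurog2 (chr3:127633135-127635631) was at 51.5, 45.2 and 55.9 normalized reads in wild type and at 70.3, 38.1, 41.7 and 44.0 in the null, and the wild type range lay inside the null range. Its log2 difference was -0.10 with a 95% interval from -0.65 to 0.44. Eomes (chr9:118478212-118486132) was at 182, 135 and 91.7 normalized reads in wild type and at 119, 120, 108 and 59.0 in the null. Both groups spread widely and overlapped, and the log2 difference of -0.42 had an interval from -1.11 to 0.27. It was -0.18 without bc201 or without bc207, -0.67 without bc203 and -0.17 with litter as a block. For Neurod1 (chr2:79452521-79456751), the bHLH factor of new neurons, the interval ran from -0.34 to 0.15.

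The 2 Notch effectors gave no call either. Hes1 was at 128, 145 and 112 normalized reads in wild type, at 94.4, 142, 131 and 110 in the null and at 99.6 and 117 in the transgenic null. Hes5 was at 131, 137 and 195 in wild type, at 176, 209, 177 and 147 in the null and at 171 and 170 in the transgenic null. The 3 groups overlapped for both genes, and the intervals of the null against wild type ran from -0.47 to 0.24 for Hes1 and from -0.14 to 0.56 for Hes5. Within litter m1, with 2 libraries a group, Hes5 was at 131 and 137 in wild type and at 209 and 177 in the null. That log2 difference was 0.52 (limma adjusted p = 0.137), against 0.21 over all libraries and 0.34 with litter as a block. For Hes1 the difference within litter m1 was 0.003. An antisense transcript, Gm20421, overlaps 31.8% of the exon bases of Hes5, and since the sources used here do not state whether strand was used in counting, its reads and those of Hes5 cannot be told apart. Dmrta2 was at 71.0, 93.6 and 89.6 normalized reads in wild type, at 91.4, 100, 77.2 and 80.6 in the null and at 79.7 and 95.1 in the transgenic null. Its groups overlapped fully, and the 3 log2 differences, 0.05, 0.00 and 0.05, had intervals from -0.29 to 0.38, from -0.38 to 0.38 and from -0.35 to 0.45 (null against wild type, transgenic null against null and transgenic null against wild type).

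In the transgenic null against the null, 1 member passed the test, Eomes. Both Fezf2-/-; Fezf2-EnR libraries exceeded all 4 Fezf2-/- libraries and all 3 wild type libraries for 4 of the 8 genes, Eomes, Neurog2, Neurod1 and Nr2e1, where 6.72% of all genes had this pattern. The same 4 genes had an unadjusted p under 0.05 (7.87% of all genes did so in this direction), and 1 of them, Eomes, passed the adjusted threshold (0.333% of all genes passed in this direction and 0.766% in either). The median log2 difference of the 8 genes was 0.33, beside 0.00 over all genes. Each transgenic library alone gave the same 4 genes above every null library, where 21.3% of all genes did so for bc208 and 31.3% for bc209; this count was added after the data were seen.

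Eomes was at 260 normalized reads in bc208 and at 506 in bc209, against 59.0 to 120 in the null. The log2 difference was 1.88 ± 0.36 (SE, 2 against 4 libraries), a rise of 3.69-fold with a 95% interval from 2.14 to 6.35 (limma adjusted p = 0.0426). Within litter m3, bc208 at 260 stood above its null littermates at 119 and 59.0, a log2 difference of 1.62 that did not pass on 1 against 2 libraries (limma adjusted p = 0.296). With litter as a block the difference was 2.05 (adjusted p = 0.0303). The call was lost without bc209 (log2 difference 1.40, limma adjusted p = 0.551), while without bc208 the difference was 2.36 (adjusted p = 0.0155). Leaving out bc201, bc202, bc204, bc205, bc206 or bc207 also took the limma adjusted p past the threshold, to between 0.0531 and 0.0881, with log2 differences of 1.64 to 1.98. It was also lost when a term for Xist-high and Xist-low libraries was added (1.18, adjusted p = 0.882), a fit in which 0.0679% of all genes passed; the Xist-high wild type library bc201 had the highest Eomes value of its group, 182, still below both transgenic libraries. The antisense transcript Gm33460 overlaps 2.8% of the Eomes exon bases.

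Neurog2 was at 93.6 normalized reads in bc208 and at 168 in bc209, against 38.1 to 70.3 in the null. Every transgenic value exceeded every null and wild type value, and the wild type and null groups lay together below. The log2 difference from the null was 1.39 ± 0.28, or 2.63-fold, with an interval from 1.71 to 4.04, and missed the adjusted threshold (limma adjusted p = 0.0562). It came to 0.74 within litter m3, where bc208 at 93.6 was set against 70.3 and 44.0. With litter as a block it was 1.11 (adjusted p = 0.148), and with a term for Xist 1.36 (adjusted p = 0.882). Neurog2 passed without bc208 (1.81, limma adjusted p = 0.0141) and without bc204 (1.58, adjusted p = 0.0235), the null library with the highest sum of striatal markers (4151), and without bc209 its difference was 0.97.

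Neurod1 was at 873 and 840 normalized reads in the transgenic null, against 604, 538, 526 and 736 in the null and 632, 605 and 672 in wild type. Here bc208 and bc209 were alike, and the log2 difference from the null was 0.52 ± 0.12, or 1.44-fold (limma adjusted p = 0.0987), and passed without the null library bc207 (0.62, adjusted p = 0.0181). Exons of Cerkl cover 7.4% of the Neurod1 exon bases and those of Gm26755 cover 5.6%. Nr2e1 was at 410 and 375 in the transgenic null, above all 7 other libraries, with a log2 difference from the null of 0.46 ± 0.11, or 1.38-fold (adjusted p = 0.106). For Sox2 the difference was 0.19 with an interval from -0.03 to 0.41. Hes1 and Hes5 differed from the null by -0.13 and -0.04, with intervals from -0.53 to 0.28 and from -0.44 to 0.36. A log2 change as large as that of Neurog2 or Eomes lies outside the intervals of Hes1, Hes5, Sox2 and Dmrta2.

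**Figure D2:**
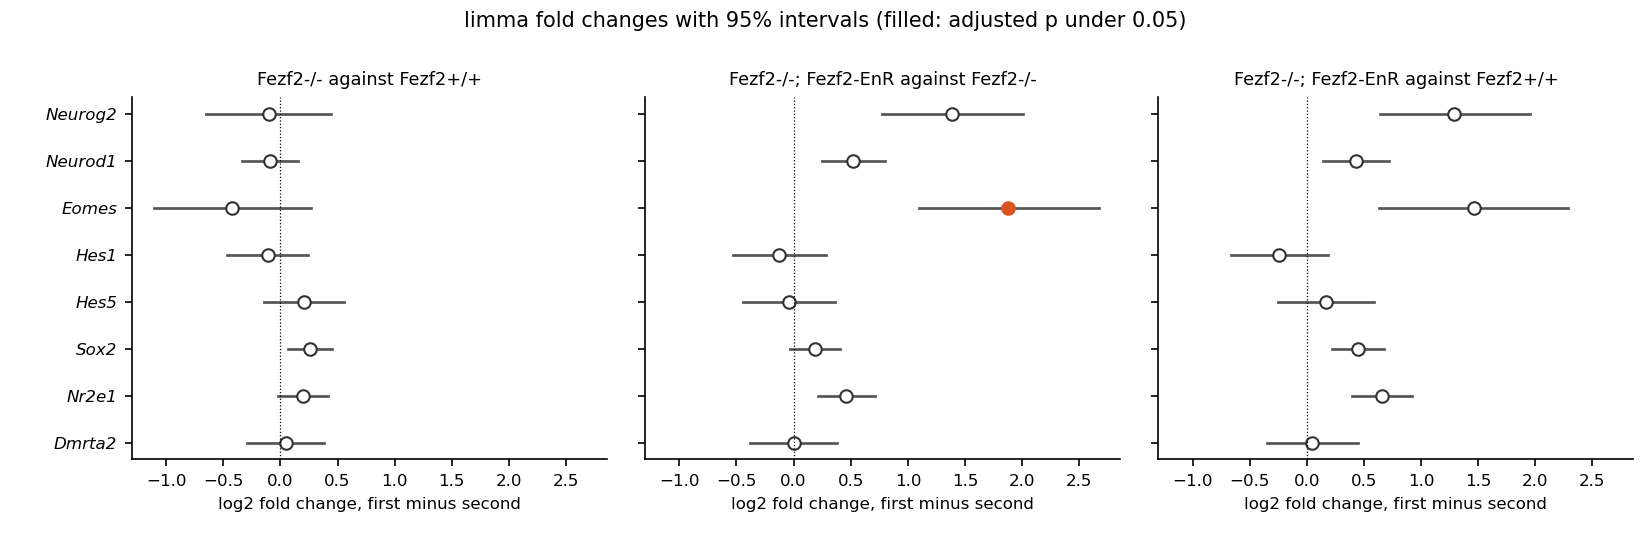
Log2 fold change of the 8 tested genes (horizontal axis, first group minus second) in the 3 comparisons, with 95% limma intervals; a filled point passed an adjusted p of 0.05. Eomes in the transgenic null against the null, at 1.88, is the single filled point, and the intervals of Neurog2 and Eomes are the widest.

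The count tests on recovered reads called more of the 8 genes. In the transgenic null against the null, the edgeR quasi-likelihood test called 2, Eomes and Neurog2 (edgeR log2 differences 1.92 and 1.42, the latter with adjusted p = 0.0445), where it called 0.704% of all genes. DESeq2 called 4, Eomes, Neurog2, Neurod1 (adjusted p = 0.011) and Nr2e1 (adjusted p = 0.03), where it called 3.56% of all genes to which it gave an adjusted p.

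**Figure D3:**
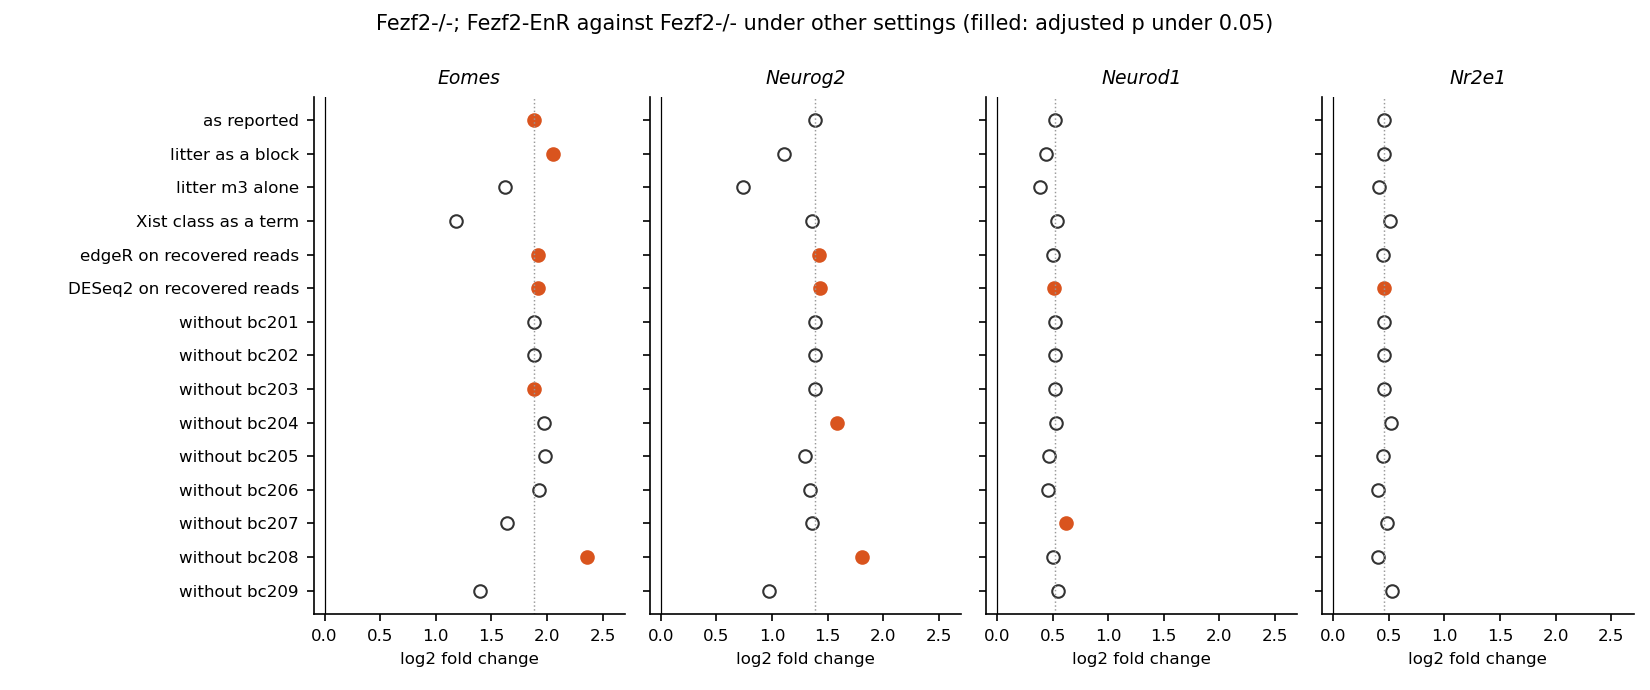
Log2 fold change of Eomes, Neurog2, Neurod1 and Nr2e1 between Fezf2-/-; Fezf2-EnR and Fezf2-/- (horizontal axes) under each setting named on the vertical axis, filled where the adjusted p was under 0.05; the dotted line is the value as reported. Every point lies above 0, and Eomes ranges from 1.18 with a term for Xist to 2.36 without bc208.

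Against wild type, 0 of the 8 genes passed the adjusted threshold in the transgenic null with limma and 0 with edgeR, where these tests called 0.117% and 0.0926% of all genes. Both transgenic libraries exceeded the 3 wild type libraries for 5 genes, Eomes, Neurog2, Neurod1, Nr2e1 and Sox2 (17.3% of all genes had this pattern), and the same 5 had an unadjusted p under 0.05 (10.5% in this direction). Library bc208 alone exceeded all wild type libraries for 5 genes (30.8% of all genes) and bc209 alone for 6, Dmrta2 being added (33.9%). The comparisons share libraries, so their values stand side by side and are not independent of each other. Nr2e1 had the smallest p, with a log2 difference of 0.66 ± 0.12, or 1.58-fold (limma adjusted p = 0.0862). The differences were 1.46 ± 0.37 for Eomes (adjusted p = 0.126), 1.29 ± 0.30 for Neurog2 (adjusted p = 0.113), 0.45 ± 0.10 for Sox2 (adjusted p = 0.113) and 0.43 ± 0.13 for Neurod1 (adjusted p = 0.152). Without bc208, Eomes (1.94, limma adjusted p = 0.0476) and Neurog2 (1.71, adjusted p = 0.0334) passed, and without bc209 they did not (0.98, adjusted p = 0.418, and 0.87, adjusted p = 0.392). With a term for Xist, Eomes differed by 0.99 (adjusted p = 0.571).

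Within litter m2, which holds 1 wild type and 1 transgenic null pup and so no replicate, the transgenic library bc209 exceeded its wild type littermate bc203 by 2.45 on the log2 scale for Eomes and by 1.57 for Neurog2. The same pair differed by 0.63 for Nr2e1, 0.58 for Sox2 and 0.32 for Neurod1. DESeq2 called 3 genes against wild type, Eomes, Nr2e1 and Sox2, where it called 5.58% of the genes to which it gave an adjusted p, and gave none to Neurog2 and Dmrta2.

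The 9 values of Eomes spanned 3.08 log2 units and those of Neurog2 spanned 2.11, against 0.62 for Hes1 and 0.67 for Hes5. Among genes with a mean of at least 50 normalized reads, the patterns most like that of Eomes, by the root-mean-square difference of centred log2 values over the 9 libraries, were those of the non-coding gene Gm16702 (0.419) and of Neurog2 (0.466). The patterns most like that of Neurog2 were those of Col22a1, a collagen gene (0.318), and Gm16702 (0.342). The same rule named Gm16702 (0.259) and RP23-191G17.4 (0.289) for Neurog1, and Yif1a (0.203) and Arg2 (0.209) for Dmrt3, genes whose own values rest on few reads.

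The rest of the pathway was read from wider lists. Of 24 Notch ligands, receptors and modulators, limma called 0 in any of the 3 comparisons, and their median log2 differences were 0.08, 0.05 and 0.09 (null against wild type, transgenic null against null and transgenic null against wild type, the order used for all lists below). At an unadjusted p under 0.05 there were 7, 5 and 6 of the 24. Over all genes, 10.8%, 16.9% and 19.3% reached this level in either direction. The edgeR test called 0 of the 24, and DESeq2 called 3, 1 and 3. Over all genes edgeR called 0.877%, 0.704% and 0.0926%, and DESeq2 1.95%, 3.56% and 5.58% of those given an adjusted p. These shares apply to the counts of every list below. The 2 with the smallest p in the null were Dner, a Notch ligand of neurons (log2 difference 0.45, limma adjusted p = 0.0987; -0.49 in the transgenic null against the null), and the receptor Notch2 (0.52, adjusted p = 0.144). Of 11 further HES, HEY and ID inhibitors tested, 0 were called, with medians of 0.00, -0.03 and 0.05. Hes7 and Hey2 had the smallest p of these, with log2 differences of 0.47 and 0.32 in the null. At an unadjusted p under 0.05 there were 0, 0 and 2 of the 11, and neither edgeR nor DESeq2 called any. Over all genes limma called 0.858%, 0.766% and 0.117% in the 3 comparisons. At such shares, 0 calls among 24 or 11 genes say little about either list.

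Of 10 other proneural and neuronal bHLH factors tested, Bhlhe22, a factor of postmitotic projection neurons, was the 1 gene that limma called. It fell by 0.45 in the null on the log2 scale (limma adjusted p = 0.0432; means of 7436 and 5433 normalized reads) and was at 7704 in the transgenic null. The medians of this list were 0.08, 0.19 and 0.22. At an unadjusted p under 0.05 there were 4, 3 and 5 of the 10, against 10.8%, 16.9% and 19.3% of all genes. The edgeR test called 1, 1 and 0 of them and DESeq2 1, 1 and 2. Of 24 other cortical progenitor factors tested, limma called 2, both in the null against wild type. Emx1, a homeobox factor of the dorsal telencephalon, fell by 0.44 (adjusted p = 0.0296), and Dmrt2, of the same DM-domain family as Dmrta2 and Dmrt3, rose by 1.76 (adjusted p = 0.0296; means of 19.5 and 70.8, and 35.9 in the transgenic null). The medians of this list were 0.20, 0.20 and 0.24. At an unadjusted p under 0.05 there were 10, 11 and 11 of the 24, against the same shares of all genes. The edgeR test called 2, 0 and 0 of them and DESeq2 3, 3 and 5.

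Markers of the cells in which these factors act were set beside them. Of 12 intermediate progenitor markers tested, Chd7, a chromatin remodeler, and Slc17a6, a vesicular glutamate transporter that neurons also use, rose in the null (log2 differences 0.41 and 0.59, limma adjusted p = 0.028 and 0.0367), and Chd7 was also called in the transgenic null against wild type (0.75, adjusted p = 0.0069). In the transgenic null against the null 0 of the 12 were called by limma or edgeR and 1 by DESeq2. The median was 0.26, and 4 had an unadjusted p under 0.05, where 16.9% of all genes did. Of those 4, 3 were higher and 1 was lower. Over the list 10 of the 12 were higher in the transgenic null than in the null and 2 were lower. Both transgenic libraries lay above every null library for 4 of the 12 and below for 1. Over all genes, 21.3% lay above every null library in bc208 alone and 31.3% in bc209 alone. The share for both libraries together is not given here, so this count is a description only. The sum over 15 such markers was 12419 to 13067 normalized reads in wild type and 13150 to 14541 in the null. It was 13496 in bc208, within the null range, and 15964 in bc209, above that range. Of the 15 markers, 14 were above 0 in every library.

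Of 20 proliferating cell markers, limma called 0 in any comparison, and 19 of 20 had a positive log2 difference in the transgenic null against the null, where their median was 0.36. There were 0, 6 and 8 of the 20 at an unadjusted p under 0.05, against 10.8%, 16.9% and 19.3% of all genes. DESeq2 called 2 in the transgenic null against wild type and edgeR 0. Their sum was 5420 to 7011 in wild type, 5861 to 7441 in the null, and 6957 and 8572 in bc208 and bc209. Mki67, made by dividing cells, had means of 559, 673 and 928 in the 3 groups (log2 difference 0.45 in the transgenic null against the null, adjusted p = 0.224), and Aurka, a mitotic kinase, had 66.8, 79.5 and 98.1. The library bc209, with the highest Eomes and Neurog2, thus also had the highest proliferation sum, and the part of dividing cells in the Eomes and Neurog2 values was not tested.

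Regional and other cell type markers differed between the groups in places. The sum of 12 hippocampal and dentate markers was 8620 to 9441 in wild type, 8620 to 11126 in the null and 11879 to 12504 in the transgenic null, so that the transgenic libraries were apart from the rest. Most of that sum came from Zbtb20 (means of 2432, 2860 and 4011) and Meis2 (4444, 4513 and 5743), 2 genes named after their values were seen, while over the list 5 of 12 genes were higher and 7 lower in the transgenic null against the null, with a median of -0.02. In this list limma and edgeR called 0 of the 12 and DESeq2 called 0, 1 and 2. At an unadjusted p under 0.05 there were 3, 3 and 5, against 10.8%, 16.9% and 19.3% of all genes. Grik4 (log2 difference -0.35 in the null) and Lhx9 (1.37) had the smallest p. The sum of cortical hem and choroid plexus markers, of which 5 were tested and 0 called by any of the 3 tools, with 1, 2 and 0 at an unadjusted p under 0.05 (Trp73 at -0.28 and Bmp6 at 0.62 in the null), was 605 to 726, 524 to 645 and 721 to 781, and Ttr, the defining choroid plexus gene, was near 0 with group means of 1.05 to 1.80 normalized reads. The sum of 12 GABAergic and ventral forebrain markers was 6642 to 6794 in wild type, 8287 to 9615 in the null and 7088 to 8022 in the transgenic null. Their median log2 difference was 0.48 in the null against wild type and -0.14 in the transgenic null against the null. Of the 12, limma and edgeR called 0. DESeq2 called 5, 0 and 4, where it called 1.95%, 3.56% and 5.58% of all genes given an adjusted p. At an unadjusted p under 0.05 there were 8, 4 and 6, against the shares of all genes given above. Sp8 was at 0.77 and Dlx2 at 0.41 in the null (limma adjusted p = 0.0511 and 0.0632). The share of these regions and cells in the values of the members was not tested.

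The remaining lists gave few calls. Of 19 radial glia and astrocyte markers tested, limma called 1, Fam107a, a marker of outer radial glia and astrocytes. It fell by 1.77 in the transgenic null against wild type (limma adjusted p = 0.0413). In that comparison 14 of the 19 were higher and 5 lower, with a median of 0.20, and Fam107a went against most of them. At an unadjusted p under 0.05 there were 8 higher and 1 lower, where 10.5% of all genes were higher at this level. Of the 19, 17 had a positive log2 difference in the null against wild type (median 0.19). Over the 3 comparisons 8, 3 and 9 had an unadjusted p under 0.05, against 10.8%, 16.9% and 19.3% of all genes. The edgeR test called 1, 0 and 0 of the 19 and DESeq2 2, 0 and 2. Of 10 excitatory neuron markers, Nrn1 (1.16, limma adjusted p = 0.0466) and the already named Slc17a6 rose in the null. Over this list 5 genes were higher and 5 lower in the null than in wild type, with a median of 0.02. Striatal marker levels differed between libraries of 1 genotype, where the sum of 9 striatal markers was 4151 in the null library bc204 and 2863 in the transgenic library bc208, against 849 to 1700 in the other 7. The null library bc204 also had the highest Sox2, Nr2e1 and Neurog2 of its group, and the part of striatal tissue in these values was not tested. The 9 striatal markers tested (Ppp1r1b at -1.10 and Tac1 at 1.15 in the null) and the 8 oligodendrocyte precursor markers (Sox10 at 0.34 and Pdgfra at 0.25) gave 0 calls with any of the 3 tools, with 1, 1 and 0 and with 4, 1 and 1 at an unadjusted p under 0.05. Of the 9 striatal markers, 8 were higher in the null than in wild type and 1, Ppp1r1b, was lower, with a median of 0.61. All 8 of the oligodendrocyte precursor markers were higher in the null than in wild type, with a median of 0.28. Of 15 meningeal, vascular and microglial markers, Lum, a matrix proteoglycan, fell by 2.40 in the null (limma adjusted p = 0.0176). Lum rose by 2.30 in the transgenic null against the null (limma adjusted p = 0.0426). Over the list 10 genes were higher and 5 lower in the null than in wild type, with a median of 0.03. In the transgenic null against the null 4 were higher and 11 lower, with a median of -0.12. Lum thus went against most of its list in both comparisons. The sum of this list was lowest in the transgenic libraries, at 7567 to 7843 against 8642 to 12231 in the null and 8626 to 11575 in wild type.

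**Figure D4:**
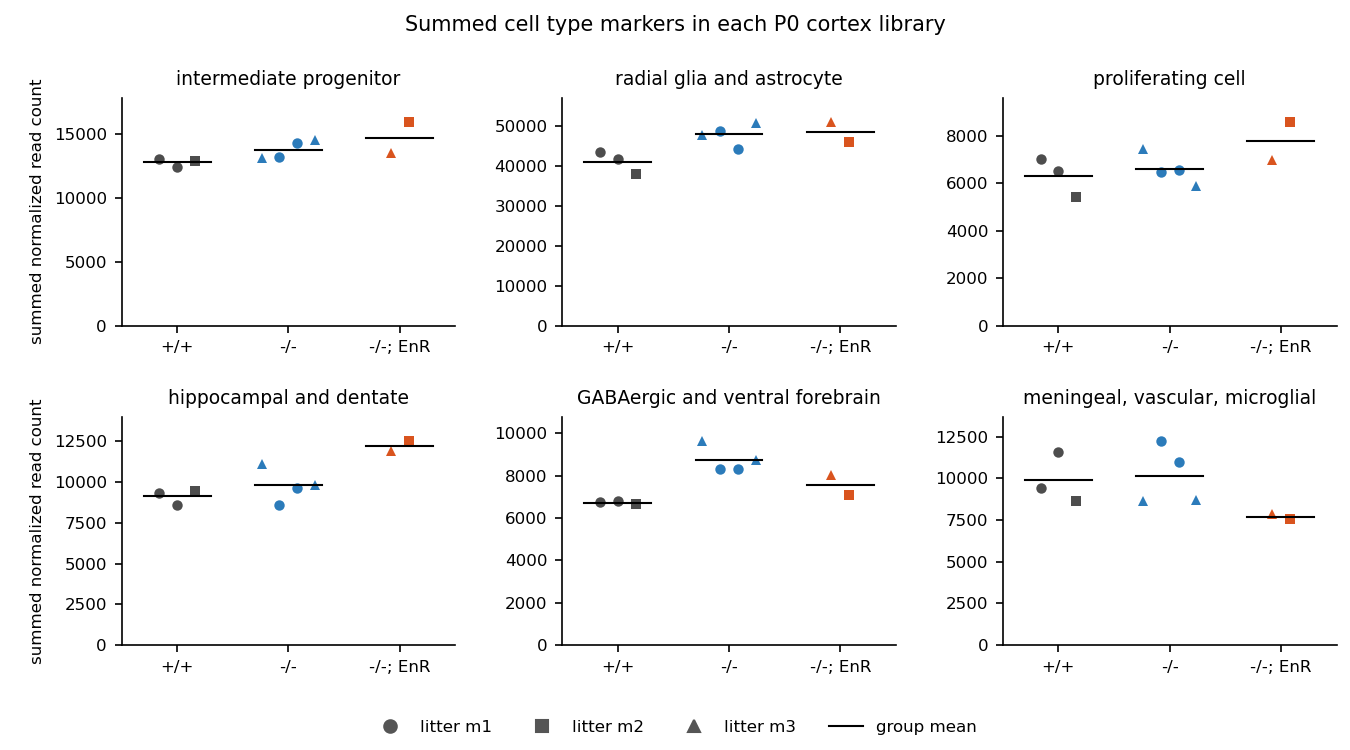
Summed normalized read count of 6 marker lists (vertical axes, from 0) in the 9 libraries, by genotype on the horizontal axis; the symbol gives the litter and the line the group mean. The hippocampal and dentate sum is higher in both transgenic libraries (11879 and 12504) than in any other, while the proliferating and intermediate progenitor sums are highest in bc209 (8572 and 15964).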

How the data were processed

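The deposited table held a normalized signal per gene and library, which the authors made by aligning reads to mm10 and dividing read counts by DESeq size factors; Bowtie, STAR and DESeq are named in the submitters' processing notes, without versions. Strand use and annotation release are not given in the sources used here; per the study's methods, both sexes were used and newborn pups were not sexed. In each library the deposited values between 20 and 200 were whole multiples of 1 value in 100.0% of cases (tolerance 0.1 read), so whole reads were recovered for all 9 libraries.

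Genes with a mean of at least 10 over the 9 libraries (16197) were tested as log2(value + 1) with limma 3.58.1 (R 4.3.3, trend), with 1 coefficient per genotype over all libraries and Benjamini-Hochberg adjustment, called at an adjusted p under 0.05. A fold change on this scale understates that of low genes. edgeR 4.0.16 and DESeq2 1.42.0 on the recovered reads, other pseudocounts, filters and scalings, litter as a block, single litters, leaving out each library, and a term for Xist (added after the data were seen) were alternatives. Litters come from the labels; replicates are single mice. The limma fit was tested on simulated counts with changes planted in the null, scored for the null against wild type only. The comparisons with the transgenic null were not scored in that simulation. Exon lengths and positions are from GENCODE M21; promoters are RefSeq windows (GRCm38.p6).

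The genes and lists were chosen with earlier results of these data known. Named genes are all 10 members, from each list the genes called in any comparison (at most 4) or else the 2 with the smallest p in the null, and for members that were called or spanned over 1 log2 unit the 2 genes of most similar pattern; Neurod6, Ttr, Zbtb20, Meis2 and Xist were named after their values were seen.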

Additional observations from a re-analysis of the deposited data

How the results depend on the processing

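Across the alternatives, 459 of the values for single genes kept their direction and, where an adjusted p was given, their side of the threshold. Most of these were of values not called as reported. A further 21 turned direction, 12 gained a call, 10 lost the call, and 2 without an adjusted p moved by at least 1 SE. All 10 losses were of the 1 call, Eomes in the transgenic null against the null. For all genes called, the null against wild type had 139, and 221 with only these 2 groups, 233 in litter m1 alone, 315 by DESeq2, 1752 at an unadjusted p under 0.05, 66 with a term for Xist and 66 to 217 without 1 library. The transgenic null against the null had 124, and 67, 33 in litter m3 alone, 454, 2741, 11 and 21 to 1088 in the same order. The transgenic null against wild type had 19, and 10 with a mean of at least 50, 12 with only these 2 groups, 32 with litter as a block, 641 by DESeq2, 3118 at an unadjusted p and 8 to 491 without 1 library. Of the 8 genes described, the null against wild type had 1 at an unadjusted p. The transgenic null against the null had 1 as reported, 0 with only the 2 groups, in litter m3 alone or with a term for Xist, 2 by edgeR, 4 by DESeq2 or at an unadjusted p, and 0 to 2 without 1 library. The transgenic null against wild type had 3 by DESeq2, 5 at an unadjusted p and 0 to 2 without 1 library.

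Eomes in the transgenic null against the null passed in 2 of 9 fits without 1 library, those without bc203 and without bc208; its log2 difference ran from 1.40 to 2.36 and its limma adjusted p from 0.0155 to 0.551. With only the 2 groups its adjusted p was 0.069. Neurog2 passed without bc204 and without bc208 (0.97 to 1.81), and Neurod1 without bc207. Directions turned only for uncalled values near 0. Hes1 turned in the null (0.02 with litter as a block, 0.003 in litter m1 alone) and against wild type in the transgenic null (0.02, and 0.07 in litter m2 alone). Hes5 turned in the transgenic null against the null (0.27 with a term for Xist, 0.09 in litter m3 alone, -0.13 to 0.04 without 1 library) and against wild type (-0.19 in litter m2 alone). Dmrta2 turned in the null (-0.08 with a term for Xist, -0.08 to 0.12 without 1 library), in the transgenic null against the null (-0.002 by TMM scaling, -0.08 with litter as a block, -0.11 in litter m3 alone, -0.005 by edgeR, -0.001 by DESeq2, -0.12 to 0.13 without 1 library) and against wild type (-0.08 to 0.17 without 1 library). The causes were not tested. No paired analysis was possible by replicate number because no number is shared between groups; litter served as the block and left the Eomes call in place. With 2 transgenic libraries, low-count genes such as Neurog1 and Dmrt3 allow no statement.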
